A study of Mus musculus with 38 samples.

Results

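To ask how regenerating muscle of aged mice differed from that of young mice when neither received the nutrient combination NAM/PN, the injured gastrocnemius of 3 aged vehicle-treated mice was compared with that of 5 young vehicle-treated mice. These 8 libraries of the 38 in the series were chosen by their sample titles alone (control, injured, old or young), without use of any measured value. All 8 came from male wild-type C57BL/6JRj mice that were gavaged daily with 1% sodium carboxymethyl cellulose and received intramuscular cardiotoxin in one hind limb, and all were collected at day 5, so that the labels name age (young or old in the labels) as the one difference in treatment or origin. Cardiotoxin is a snake venom toxin that lyses muscle fibres and spares most of their stem cells. The contralateral gastrocnemius of 6 aged and 6 young vehicle-treated mice, which included the other leg of all 8 mice, gave the uninjured reference. Each library was made from muscle RNA of 1 mouse, by the mouse numbers in the labels, with 3′ tag sequencing, in which a transcript is counted by reads from its 3′ end. Ckm, muscle creatine kinase, stood at 1575 CPM or more in all 8 injured libraries.

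At this stage of repair a cleared lesion holds macrophages, proliferating and differentiating muscle stem cells, newly fused fibres that carry embryonic and neonatal myosins, and fibro-adipogenic progenitors that lay down a transient collagen scaffold. Fibres that escaped the toxin, and mature fibres that are rebuilt later, are the source of adult contractile proteins and of most of the mitochondrial energy genes. Aged muscle is known for slower and less complete repair, with stem cells that expand less and a matrix that differs in its composition. In bulk tissue, fewer cells of a type and less RNA per cell cannot be told apart, and this holds for every level given here.

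Between 4032414 and 7507191 counts were assigned per library in the 8 injured samples, and 14623 to 15516 genes had at least 1 count. Library 4 of the young injured group stood apart from the other 7 on the first principal component, and values without it are given for the main groups of genes. Submitters described samples in 2 spellings, here called styles: the 3 aged injured libraries and young injured libraries 2 and 5 shared 1 style, and young injured libraries 1, 3 and 4 had the other. What the style stands for is not given in the sources used here, and values within the shared style are given for many of the groups of genes, in the text or in the plot of list medians. Within the young injured group, 0 of 12904 genes differed between styles at an adjusted p under 0.05 in edgeR's quasi-likelihood test, and 517 (4.01%) did at an unadjusted p under 0.05. Among the contralateral libraries, aged replicates 3 and 6 stood apart from the other 4, with levels of embryonic myosin and macrophage genes closer to those of injured muscle.

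No gene passed the test of the age difference in injured muscle. In edgeR's quasi-likelihood test with Benjamini-Hochberg adjustment, 0 of 12610 genes had an adjusted p under 0.05, and the smallest adjusted p was 0.245. Without adjustment 796 genes, or 6.31% of those tested, had a p under 0.05, of which 465 (3.69%) were higher and 331 (2.62%) lower in aged mice. For 811 genes (6.43%) the 3 aged values did not overlap with the 5 young values, with the aged group above for 449 (3.56%) and below for 362 (2.87%). The median log2 fold change of all genes was 0.00, and 50.3% of genes were above 0, while scaling by library totals alone shifted that median to -0.18. The number of calls depended on the tool, since limma's voom with quality weights called 128 genes (1.02%; 67 or 0.531% higher and 61 or 0.484% lower in aged mice) and DESeq2 called 16 (0.127%; 8 in each direction, or 0.0634% each). Values are given below as CPM, which are read counts relative to the library's TMM-scaled total, fold changes as the log2 estimate of aged over young ± SE, and adjusted p-values are edgeR's unless another tool is named. The SE rests on the spread within the groups of all 38 libraries, not of these 8 alone. All tests were two-sided.

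Extracellular matrix genes lay lower in aged injured muscle with few exceptions. Of 82 tested genes that encode collagens, basement membrane proteins, matrix glycoproteins and proteoglycans or the enzymes that process collagen, 79 had a log2 fold change below 0, against 49.7% of all genes, and the median was -0.64 against 0.00. None passed edgeR's adjusted test, 30 were lower and 0 higher at an unadjusted p under 0.05, and 28 were lower in all 3 aged libraries than in any young library while 0 were higher in all 3, against 2.62% of all genes lower at that p and 2.87% lower without overlap. Without young library 4, 47 were lower in all 3 aged libraries, against 5.26% of all genes. Voom with quality weights called 13 of them lower and 0 higher, against 0.484% of all genes lower. DESeq2 called 3 lower and 0 higher, against 0.0634% of all genes lower. The median was -0.58 within the shared description style and -0.67 without young library 4, and it stayed between -0.72 and -0.52 when any 1 of the 8 libraries was left out. Summed over these genes, the level lay between 9262 and 10406 CPM in the aged and between 14825 and 29288 CPM in the young libraries.

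Fibrillar collagens, the rope-like proteins that give scar and tendon their tensile strength, followed this pattern. Of 10 tested, 9 had a log2 fold change below 0, with a median of -0.94. In every aged library 7 lay below all young values, against 2.87% of all genes. Col1a2 (ENSMUSG00000029661, chr6:4504814-4541544 in GRCm38), which encodes one of the chains of type I collagen, measured 1271, 1206 and 1181 CPM in the aged and 6317, 2826, 2970.2, 2082 and 4656 CPM in the young libraries. The aged mice were nearly uniform and the young mice were not: the lowest young library still exceeded the highest aged one, with a log2 fold change of -1.63 ± 0.52 (unadjusted p = 0.0034, adjusted p = 0.468, edgeR). Col1a1, its partner chain, measured 1828, 1744 and 1426 CPM in the aged and 6637, 2864, 3669, 2905 and 4760.1 CPM in the young libraries (log2 fold change -1.32 ± 0.61, adjusted p = 0.759, edgeR). Col3a1, the collagen that precedes type I in early scar, measured 853, 893 and 760.3 against 2648, 1311, 1517, 1053 and 1965 CPM, again without overlap (log2 fold change -1.02 ± 0.53, adjusted p = 0.805, edgeR). Col11a1, a minor chain that nucleates fibrils, had the largest fold change of the list, with 8.42, 3.0 and 4.19 CPM in the aged and 41.2, 24.2, 23.7, 22.9 and 30.6 CPM in the young libraries, a log2 fold change of -2.47 ± 0.72 (adjusted p = 0.392; voom with quality weights, adjusted p = 0.0102). Col5a3, a type V chain, measured 71.7, 84.3 and 65.9 against 203, 99.6, 120.4, 124 and 97.6 CPM (log2 fold change -0.80 ± 0.27, and -0.41 within the shared style).

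Promoter sequences were available for part of these genes and are shown for 3 collagens whose aged values lay below all young values and for 2 mitochondrial genes whose aged values lay above them. Each window runs 5′ to 3′ on the gene's strand, from 250 bases before to 50 bases after the transcription start in RefSeq's annotation of GRCm38.p6. Capitals mark CCAAT or its reverse complement, and TATAAA or its reverse complement TTTATA, the core motifs bound by the factor NF-Y and by the TATA-binding protein.
Col1a2 (chr6:4505368-4505667, + strand): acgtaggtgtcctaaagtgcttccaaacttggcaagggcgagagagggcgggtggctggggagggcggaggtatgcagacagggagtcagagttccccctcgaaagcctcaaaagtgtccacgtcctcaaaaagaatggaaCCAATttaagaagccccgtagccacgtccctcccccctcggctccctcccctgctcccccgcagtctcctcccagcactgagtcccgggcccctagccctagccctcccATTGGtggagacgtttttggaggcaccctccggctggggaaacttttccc
Col3a1 (chr1:45311288-45311587, + strand): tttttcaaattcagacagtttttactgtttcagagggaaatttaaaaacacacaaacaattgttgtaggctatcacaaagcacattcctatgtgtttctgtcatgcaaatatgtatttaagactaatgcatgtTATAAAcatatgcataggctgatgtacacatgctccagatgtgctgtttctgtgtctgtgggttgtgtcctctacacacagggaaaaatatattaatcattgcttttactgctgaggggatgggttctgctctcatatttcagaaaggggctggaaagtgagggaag
Col6a1 (chr10:76725995-76726294, - strand): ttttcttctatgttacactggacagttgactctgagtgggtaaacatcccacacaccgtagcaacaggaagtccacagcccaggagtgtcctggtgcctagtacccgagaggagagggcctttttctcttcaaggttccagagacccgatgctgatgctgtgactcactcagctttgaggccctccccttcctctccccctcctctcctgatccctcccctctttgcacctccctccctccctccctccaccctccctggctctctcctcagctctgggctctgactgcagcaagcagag
Ndufb11 (chrX:20617570-20617869, - strand): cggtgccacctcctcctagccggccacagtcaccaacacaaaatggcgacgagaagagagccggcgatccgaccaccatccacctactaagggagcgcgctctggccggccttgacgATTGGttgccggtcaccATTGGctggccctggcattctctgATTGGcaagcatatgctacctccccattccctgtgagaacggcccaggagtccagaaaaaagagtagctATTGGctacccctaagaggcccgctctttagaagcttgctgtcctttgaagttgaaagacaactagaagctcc
Sdha (chr13:74350191-74350490, - strand): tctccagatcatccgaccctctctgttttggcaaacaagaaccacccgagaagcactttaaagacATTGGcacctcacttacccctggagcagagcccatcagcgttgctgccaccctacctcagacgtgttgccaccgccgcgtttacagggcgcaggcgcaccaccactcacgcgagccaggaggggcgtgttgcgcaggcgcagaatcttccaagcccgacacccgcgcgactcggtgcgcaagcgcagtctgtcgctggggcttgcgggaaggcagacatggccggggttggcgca

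The Col1a2 window held CCAAT at 2 places, that of Ndufb11 at 4 and that of Sdha at 1, that of Col3a1 held a single TATAAA, and that of Col6a1 held neither. CCAAT stood in 37.4% and TATAAA in 13.6% of all 32851 windows of the same length, counted on both strands. Of the 83 matrix genes, 58 had a window, and CCAAT was found for 32.8% and TATAAA for 19% of them, against 41.1% and 15.7% of all genes with a window. Of 77 nuclear genes of the respiratory chain, 64 had a window, with CCAAT for 42.2% and TATAAA for 9.38%. The GC box GGGCGG, on either strand, was found for 75.9% of the matrix genes, 39.1% of the respiratory chain genes and 38.2% of all genes. These shares are a description of the letters in the windows, and no test was made of them.

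Other interstitial collagens, which link fibrils to one another and to cells, were below 0 in all 9 tested genes (median -0.88). Col6a1 (ENSMUSG00000001119, chr10:76708792-76726168), a chain of the microfibril-forming type VI collagen that surrounds muscle fibres, measured 48.2, 51 and 42.4 CPM in the aged and 181, 79.8, 108, 117 and 88.9 CPM in the young libraries. The groups did not overlap, with means of 47.2 ± 4.37 (SD, n = 3) and 115 ± 39.9 (SD, n = 5), a log2 fold change of -1.29 ± 0.32 and an adjusted p of 0.245 in edgeR, 0.0101 in voom and 0.0421 in DESeq2. Col6a2, its neighbour on the chromosome and its partner in the protein, measured 104, 111 and 89.8 against 270.4, 137, 185, 177 and 164 CPM (log2 fold change -0.88 ± 0.29). Col12a1, which decorates the surface of type I fibrils, measured 9.86, 11.7 and 7.79 in the aged and 33.1, 17.2, 26.6, 11 and 34.9 CPM in the young libraries, and young library 4 lay within the aged range (log2 fold change -1.34 ± 0.42).

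Basement membrane genes had a smaller median of -0.39, and 12 of 14 were below 0. Lamc1 (ENSMUSG00000026478, chr1:153218922-153332786), the gamma chain shared by most laminins, had the smallest p-value of all genes in these lists, with 25.8, 28.7 and 27.7 CPM in the aged and 66.4, 51.2, 43, 39 and 60.1 CPM in the young libraries. Every aged library lay below every young one, the log2 fold change was -0.92 ± 0.21 (unadjusted p = 8e-05, adjusted p = 0.245, edgeR), and it was -1.02 within the shared style and between -1.01 and -0.82 when any 1 library was left out. Lamb1, a laminin beta chain, measured 66.8, 72.7 and 59 against 151, 88.9, 94.2, 67.4 and 86.8 CPM, with young library 4 inside the aged range. Agrn, which encodes the heparan sulfate proteoglycan that clusters acetylcholine receptors, was one of the 2 genes of the list above 0, at 16.3, 24.8 and 15.4 against 18.7, 12.5, 14.3, 10.8 and 13.7 CPM (log2 fold change 0.42 ± 0.24, adjusted p = 0.863, edgeR).

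All 27 matrix glycoproteins and proteoglycans tested were below 0 (median -0.66), and 9 of them were lower without overlap, against 2.87% of all genes. Fn1, fibronectin, on which provisional matrix is built, measured 212, 234 and 193 CPM in the aged and 676, 274, 358, 322 and 495 CPM in the young libraries (log2 fold change -1.0 ± 0.44, adjusted p = 0.737, edgeR). Tnc, tenascin C, a glycoprotein of wounds and of the activated stem cell niche, measured 70.3, 61.5 and 78 against 162, 124, 200.2, 80.7 and 207 CPM (log2 fold change -1.15 ± 0.57). Postn, periostin, measured 197, 202 and 124 against 566, 239, 324, 160.5 and 451 CPM, and here young library 4 overlapped with the aged group. Thbs2, a matricellular thrombospondin, measured 26.5, 18.5 and 13.8 against 72.2, 26.2, 41.6, 31.3 and 60.2 CPM (log2 fold change -1.25 ± 0.35; voom with quality weights, adjusted p = 0.0101), and Ecm2 measured 17, 15.5 and 11.9 against 43.7, 30.6, 26, 38.3 and 22.3 CPM without overlap. Cthrc1, which is secreted by activated fibroblasts, ranged among young mice from 2.58 CPM in library 4 to 22.2 CPM in library 5, against 5.2, 4.0 and 2.4 CPM in the aged libraries.

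The enzymes that fold, trim and cross-link collagen lay on the same side as their substrates, with all 22 tested genes below 0 (median -0.55). Of these, 8 were lower without overlap, against 2.87% of all genes. Loxl2 (ENSMUSG00000034205, chr14:69609068-69695834), a lysyl oxidase that cross-links collagen, measured 20.4, 18.2 and 17.4 CPM in the aged and 77.6, 37.3, 30.7, 29 and 56.2 CPM in the young libraries. Its log2 fold change was -1.31 ± 0.32, with an adjusted p of 0.245 in edgeR and 0.0421 in DESeq2, and its groups did not overlap. Lox, the prototype of that enzyme family, measured 114, 130.2 and 164 against 200.0, 174, 247, 229 and 212 CPM, also without overlap (log2 fold change -0.64 ± 0.41, adjusted p = 0.895, edgeR). P3h3, a prolyl 3-hydroxylase, measured 3.23, 2.67 and 3.29 against 11.7, 5.63, 8.42, 7.73 and 6.4 CPM, and Bmp1, which removes the C-terminal propeptide of procollagen, measured 19.2, 25.5 and 21.9 against 58.1, 28.6, 37.4, 46.9 and 34 CPM, and neither overlapped. Pycr1, a proline-making enzyme outside these lists, lay likewise without overlap, at 6.81, 7.67 and 4.69 against 18.9, 9.59, 14.9, 10.2 and 10.7 CPM (log2 fold change -1.02 ± 0.30, adjusted p = 0.383, edgeR). Genes of general protein folding in the endoplasmic reticulum and of its unfolded protein response had a median of -0.11, with 12 of 15 below 0. At an unadjusted p under 0.05, 1 of the 15 was lower, against 2.62% of all genes. Without overlap 2 were lower, against 2.87% of all genes.

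Matrix-degrading enzymes and their inhibitors had a median of -0.37, with 18 of 21 genes below 0, and the median within the shared style was -0.54. At an unadjusted p under 0.05, 2 were lower, against 2.62% of all genes. With all libraries 0 were without overlap in either direction, against 6.43% of all genes. Without young library 4, 5 were lower without overlap, against 5.26% of all genes. Mmp14, a membrane-bound collagenase, measured 94.6, 107 and 111 CPM in the aged and 292, 113, 152, 107 and 189.6 CPM in the young libraries. Timp1, an inhibitor of metalloproteinases, measured 37.6, 37.5 and 52 against 43.9, 51.9, 66.4, 87.3 and 73.3 CPM, and Ctsk, a collagen-degrading cathepsin, 9.32, 6.83 and 6.99 against 27.3, 16.6, 10.5, 3.87 and 21.5 CPM. The groups overlapped for all 3 genes.

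**Figure D1:**
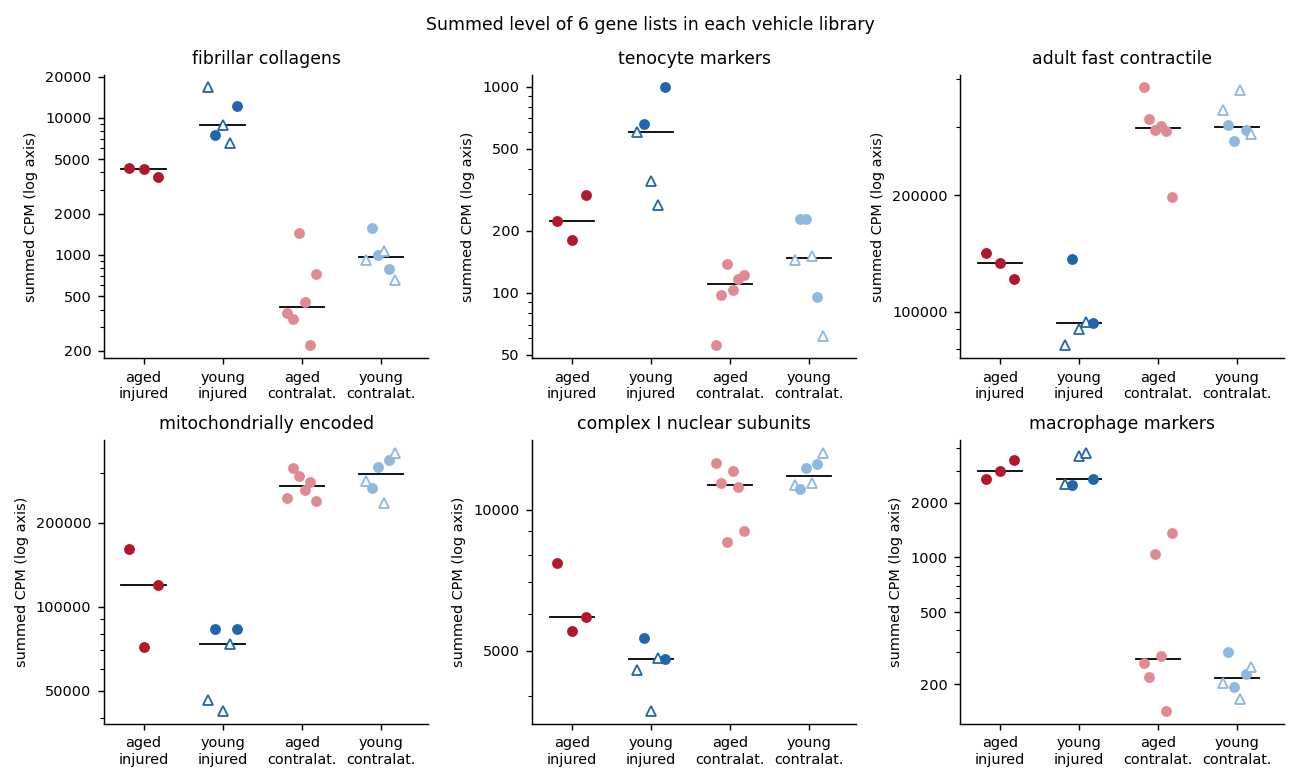
Summed CPM of 6 gene lists (log axis) in each vehicle library, by age and leg. Filled circles are libraries with the description style of the aged mice, open triangles those with the other style, and the horizontal line is the group median. Fibrillar collagens lay between 3716 and 4331 CPM in aged and between 6548 and 16701 CPM in young injured muscle.

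Tendon cell genes had the lowest median of all lists. Of 6 tested markers of tenocytes, the fibroblasts of tendon, 6 were below 0, and the median was -1.47. At an unadjusted p under 0.05, 5 of them were lower, against 2.62% of all genes. Within the shared style the median was -1.86, and among young mice the libraries of that style exceeded the others by a median of 0.75. Their summed level was 180.4 to 297 CPM in the aged and 266 to 990.0 CPM in the young libraries, and the ranges overlapped. Tnmd, tenomodulin, a membrane protein of mature tendon, measured 6.27, 3.83 and 8.49 CPM in the aged and 36.7, 18.1, 13.5, 7.41 and 43.8 CPM in the young libraries (log2 fold change -1.93 ± 0.61, adjusted p = 0.468, edgeR). Fmod, fibromodulin, measured 45.9, 43.3 and 67.4 against 114, 230.4, 92, 102 and 130.1 CPM, and Kera, keratocan, 1.08, 0.500 and 1.1 against 10.3, 4.57, 2.1, 3.38 and 11.3 CPM, both without overlap. In the plots of single genes Tnmd is spread widely among young mice, and young library 4 reached the aged range. How much tendon was dissected with each muscle is not given in the sources used here, tendon also makes collagens, and the part of tendon in the collagen values was not tested.

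Markers of fibro-adipogenic progenitors, the mesenchymal cells that make most collagen in damaged muscle, were below 0 for 8 of 10 genes with all libraries, against 49.7% of all genes, and had a median of -0.15. Within the shared style 5 of the 10 were above 0, against 50.9% of all genes. Their summed level was 198 to 225 CPM in the aged and 207 to 257 CPM in the young libraries. Pdgfra, the receptor by which these cells are usually recognised and 1 of the 8 below 0, measured 9.5, 9.0 and 13.7 CPM in the aged and 20.3, 15.1, 15.7, 12.2 and 15.8 CPM in the young libraries, with young library 4 inside the aged range (log2 fold change -0.55 ± 0.24, adjusted p = 0.737, edgeR). The 2 markers above 0 were Hsd11b1 and Gli1. Hsd11b1, which regenerates active glucocorticoid, stood at 6.81, 4.67 and 6.99 against 1.25, 3.65, 1.84, 0.967 and 3.7 CPM without overlap (log2 fold change 1.40 ± 0.38; voom with quality weights, adjusted p = 0.0199). Gli1, a Hedgehog target, measured 2.69, 0.833 and 2.1 against 1.41, 0.609, 0.132, 1.45 and 0.800 CPM.

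Genes of the adult fibre lay on the other side. Of 20 adult fast contractile genes, 19 were above 0 in aged injured muscle against 50.3% of all genes (median 0.56), 5 of them at an unadjusted p under 0.05 against 3.69% of all genes, and of 16 genes of calcium handling and the creatine kinase system 15 were above 0 (median 0.45). None passed edgeR's adjusted test, and voom with quality weights called 3 of the 36 genes higher, against 0.531% of all genes. The median over both lists was 0.51, and 0.50 without young library 4. The style of description moved with these lists: within the young injured group, libraries with the style of the aged mice exceeded the others by a median log2 difference of 0.38 for contractile genes and 0.49 for calcium handling and creatine kinase genes. Within the shared style the age medians were 0.26 and 0.22. The part of the style in the age difference was not tested beyond these values.

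Tnni2, fast troponin I, measured 7629.8, 5777 and 6696 CPM in the aged and 2827, 5447, 2598, 2956 and 4357 CPM in the young libraries. The lowest aged library lay just above young library 2, and the log2 fold change was 0.88 ± 0.25 (adjusted p = 0.363, edgeR), or 0.45 within the shared style. Mylk2, the kinase that phosphorylates skeletal myosin light chain, measured 199, 141 and 182 against 51.9, 127, 57.9, 60.1 and 120.1 CPM (log2 fold change 1.06 ± 0.36), and Ldb3, a Z-disc protein, 1050.2, 668 and 722 against 436, 650.3, 361, 394 and 621 CPM (log2 fold change 0.72 ± 0.22). Myh4, the myosin of the fastest fibres, measured 14221, 17212 and 15588 against 7029.7, 18955, 11642, 5572 and 9937 CPM, and young library 2 lay above every aged library (log2 fold change 0.56 ± 0.33, adjusted p = 0.868, edgeR). Myh1, another fast myosin, measured 1153, 263 and 657 against 896, 652, 505, 911 and 865 CPM and did not share the direction of the list (log2 fold change -0.15 ± 0.61). Atp2a1, the calcium pump of fast sarcoplasmic reticulum, measured 6276, 5191 and 5367 against 2599, 5437, 3394, 2554 and 3591 CPM, and Ckm, muscle creatine kinase, 3733, 3032 and 3333 against 1623, 3319, 1802, 1575 and 2542 CPM, and young library 2 lay within the aged range for both. Ckmt2, the mitochondrial creatine kinase of striated muscle, measured 247, 73.7 and 142 against 60.6, 112, 32.9, 50.6 and 95.7 CPM, with young libraries 2 and 5 inside the aged range (log2 fold change 1.13 ± 0.47).

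Of 11 slow contractile genes, 10 were above 0, against 50.3% of all genes, with a median of 0.13 (0.43 within the shared style), and 0 were higher at an unadjusted p under 0.05. Myh7, slow myosin, measured 51.3, 0.833 and 17.1 CPM in the aged and 0.937, 13.4, 0.789, 125 and 14.2 CPM in the young libraries, and the highest value of all was in young library 4. Myl2, a slow light chain, measured 133, 1.0 and 45.9 against 1.25, 10.5, 0.395, 113 and 25 CPM, and Myl3 526.4, 5.0 and 165 against 4.69, 40.8, 5.39, 337 and 105 CPM. The log2 fold change of Myh7 was -0.42 ± 1.55 with all libraries and 1.62 without young library 4, and those of Myl2 and Myl3 turned from 1.0 and 1.23 to -0.33 and -0.21 without aged library 1.

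Mitochondrial energy genes lay mostly above 0 in aged injured muscle, though none passed edgeR's adjusted test. Of 106 tested genes of the respiratory chain, the tricarboxylic acid cycle and fatty acid oxidation, 98 were above 0 in aged injured muscle, against 50.3% of all genes, with a median of 0.39 and a range of -1.83 to 1.12. At an unadjusted p under 0.05, 39 were higher and 1 lower, and 26 lay above all young values in every aged library (3.69% and 3.56% of all genes were higher by these criteria). Voom with quality weights called 14 higher and DESeq2 3, against 0.531% and 0.0634% of all genes. Without young library 4 the median was 0.40, and 33 genes lay above all young values, against 6.02% of all genes. Within the shared style 86 of the 106 were above 0, with a median of 0.30, and among young mice the libraries of that style exceeded the others by a median of 0.30.

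Complex I, the entry of electrons from NADH, held 34 of 36 nuclear-encoded subunits above 0 (median 0.38). Of these, 16 were higher at an unadjusted p under 0.05 and 11 without overlap, against 3.69% and 3.56% of all genes. Ndufb11 (ENSMUSG00000031059, chrX:20615326-20617619), whose promoter is shown above, measured 148, 111 and 117 CPM in the aged and 76.7, 83.9, 57.5, 73.8 and 81.2 CPM in the young libraries. The aged libraries all lay above the young ones, with means of 125 ± 20.03 (SD, n = 3) and 74.6 ± 10.3 (SD, n = 5) and a log2 fold change of 0.75 ± 0.18 (adjusted p = 0.245 in edgeR and 0.0421 in DESeq2). Its annotated span overlaps that of Rbm10 on the other strand, and the strand setting of the counting is not given in the sources used here. Ndufv3, an accessory subunit, measured 256, 192 and 235 against 143, 151, 98.7, 98 and 144 CPM (log2 fold change 0.84 ± 0.22), and Ndufa12 203, 186 and 187 against 96.9, 148, 104, 149.9 and 126 CPM (log2 fold change 0.62 ± 0.19).

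Among complexes II to V, 37 of 41 nuclear-encoded subunits were above 0 (median 0.38). Cox6a2 (ENSMUSG00000030785, chr7:128205435-128206387), the cytochrome oxidase subunit that replaces its ubiquitous form in heart and skeletal muscle, measured 1902, 837 and 1319 CPM in the aged and 514, 822, 399, 594 and 782 CPM in the young libraries. The lowest aged value, in library 2, barely exceeded the highest young one, and the log2 fold change was 1.12 ± 0.27 (adjusted p = 0.245 in edgeR and 0.0421 in DESeq2) and 0.76 within the shared style. Its span overlaps Itgad on the other strand. Cox7a2, a widely expressed subunit of the same complex, was more even, with 385, 333 and 326 against 235, 243, 197, 212 and 236 CPM (log2 fold change 0.63 ± 0.16; DESeq2, adjusted p = 0.0421). Sdha, the flavoprotein of complex II, measured 298, 232 and 239 against 167, 193, 162, 143 and 193 CPM (log2 fold change 0.57 ± 0.16). In the tricarboxylic acid cycle and fatty acid oxidation 19 of 20 genes were above 0, among them Suclg1, a subunit of succinyl-CoA ligase, at 175, 127 and 145 against 111, 122, 92, 80.7 and 107 CPM, and Mdh2, mitochondrial malate dehydrogenase, at 822, 558 and 587 against 448, 506, 413, 463 and 474 CPM.

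Genes of the mitochondrial genome had a median log2 fold change of 0.76 over 9 tested genes, 8 of them above 0, and of 0.44 within the shared style, but for none of these did the groups separate. A share of all counts was taken over every counted gene of the mitochondrial genome, not only the 9 tested. It was 19.4%, 9.89% and 16.0% in the aged and 7.37%, 11.3%, 6.67%, 10.4% and 12.3% in the young libraries. The aged mean was 15.1% ± 4.81 (SD, n = 3) and the young mean 9.61% ± 2.47 (SD, n = 5), a difference of 5.48 percentage points with p = 0.143 in an exact two-sided permutation test, in which 56 splits allow no p below 0.0357. Aged library 2 lay inside the young range. Among the libraries of the shared style the difference was 3.28 percentage points (exact permutation p = 0.6, where 10 splits allow no p below 0.2). mt-Nd4, a complex I subunit, measured 99388, 43459.6 and 73178 CPM in the aged and 28060.4, 48829, 24849, 45193 and 49018 CPM in the young libraries, and mt-Nd1, another, 20109.8, 9567 and 15886 against 6252, 11189, 5974, 10820.3 and 11169 CPM. mt-Nd6 alone lay the other way, at 7.17, 1.5 and 4.39 against 4.84, 11.6, 5.13, 26.1 and 7.7 CPM. It is encoded on the opposite strand, its annotated span overlaps that of mt-Nd5, and its levels were low.

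Glycolysis genes had a median of 0.35, with 12 of 18 above 0. At an unadjusted p under 0.05, 3 of the 18 were higher, against 3.69% of all genes. Eno3, muscle enolase, measured 1989, 1727 and 1754 CPM in the aged and 1276, 1644, 897, 641 and 1386 CPM in the young libraries without overlap, and Pfkm, muscle phosphofructokinase, 553, 389 and 475 against 258, 493.4, 291, 242 and 367 CPM, where young library 2 exceeded 2 of the aged libraries.

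**Figure D2:**
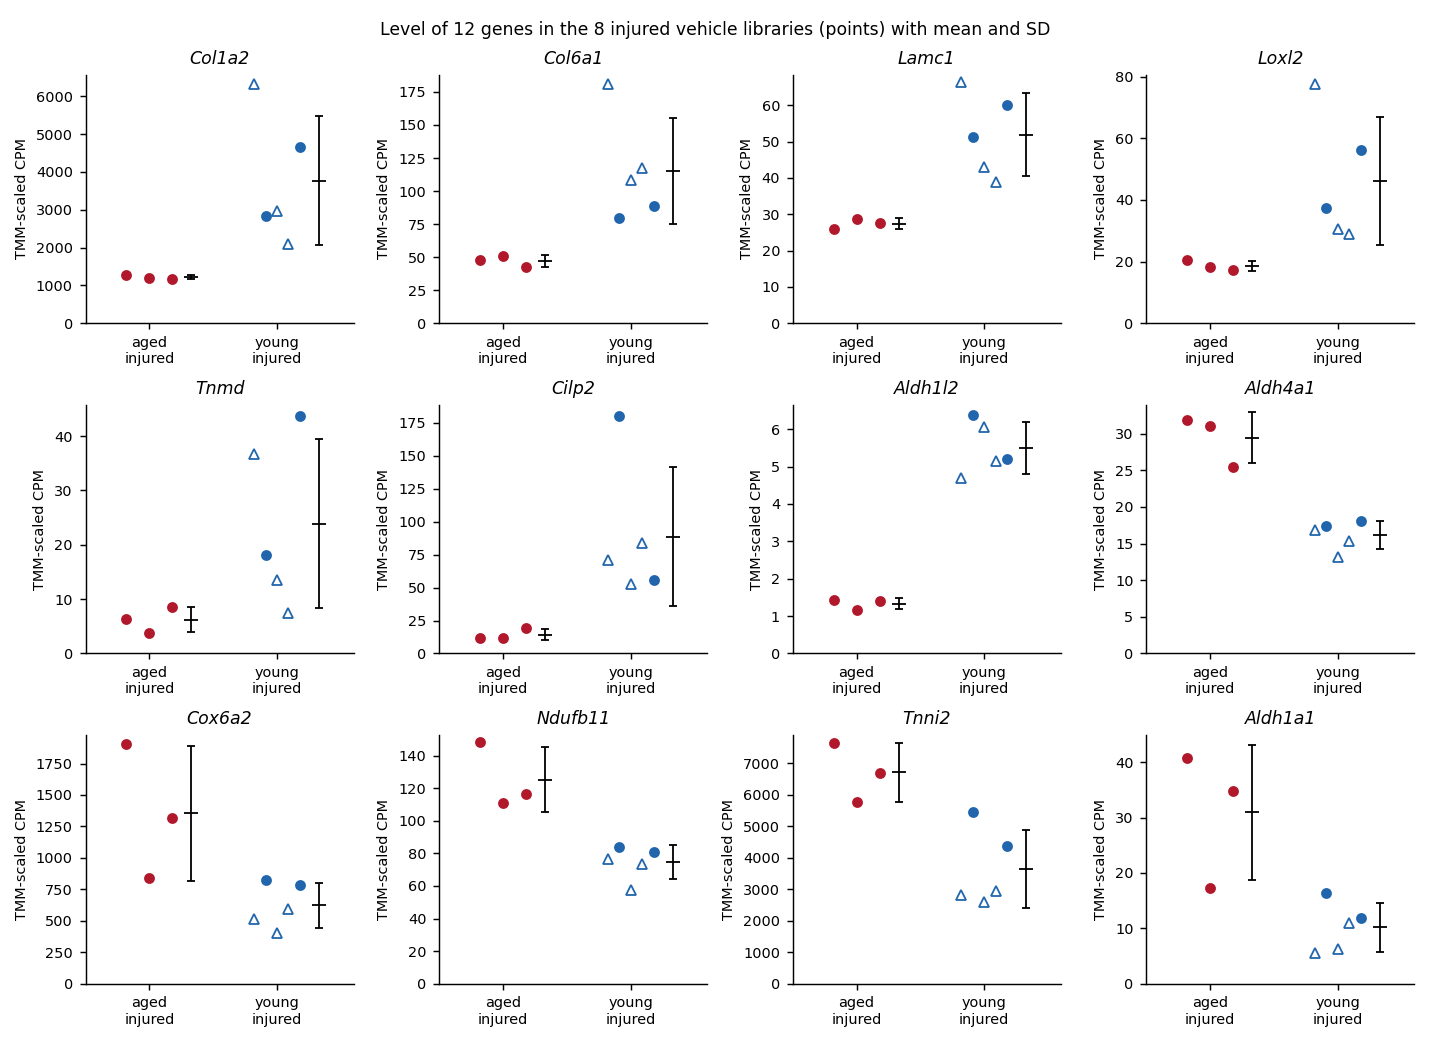
TMM-scaled CPM of 12 genes in the 8 injured vehicle libraries, on axes that start at 0. Filled circles are libraries with the description style of the aged mice, open triangles those with the other style, and the bar beside each group is the mean ± SD (n = 3 aged, n = 5 young). The groups do not overlap except for Tnmd, where young library 4 at 7.41 CPM lay within the aged values.

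Of all genes with a log2 difference of at least 1, an average level of 1 CPM or above and groups that did not overlap, 32 were higher and 71 lower in aged injured muscle, and up to 12 a side are named here. Aldh1l2 (ENSMUSG00000020256, chr10:83487450-83534140), the mitochondrial 10-formyltetrahydrofolate dehydrogenase of the folate pathway, measured 1.43, 1.17 and 1.4 CPM in the aged and 4.69, 6.39, 6.05, 5.16 and 5.2 CPM in the young libraries. It varied little within either group, with a log2 fold change of -2.02 ± 0.47 (adjusted p = 0.245 in edgeR and 0.0257 in DESeq2) that stayed between -2.07 and -1.94 when any 1 library was left out. Miat, a long noncoding RNA, was counted 0, 1 and 0 times in the aged libraries and 61 times over the 5 young ones, a rate 40.5 times as high in young mice with a 95% interval of 7.0 to 1626 that covers counting error only. Matn4, a matrilin, measured 3.05, 1.67 and 2.0 against 18.4, 8.37, 7.63, 9.67 and 6.5 CPM, Cilp2, a matrix protein of cartilage, 12, 11.8 and 19.3 against 71.2, 180.1, 52.6, 83.5 and 56 CPM, and Abi3bp 27.2, 27.5 and 19.3 against 108, 51, 54.7, 51.4 and 61.1 CPM. Serpinf1, the secreted factor PEDF, measured 49.1, 37.8 and 32.9 against 123, 83.7, 94.8, 91.7 and 73.7 CPM (log2 fold change -1.23 ± 0.32; voom with quality weights, adjusted p = 0.0101). Together with Loxl2, Col6a1, Col11a1, Ecm2, Kera and Pycr1 these made up the lower 12.

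The upper 12 were led by Cox6a2, which had the smallest p-value of them. Aldh1a1, a retinaldehyde dehydrogenase, measured 40.7, 17.3 and 34.7 CPM in the aged and 5.62, 16.4, 6.31, 11 and 11.8 CPM in the young libraries (log2 fold change 1.59 ± 0.42; voom with quality weights, adjusted p = 0.0237). Pxmp2, a peroxisomal membrane channel, measured 63.6, 25.7 and 41 against 9.84, 23.9, 10.7, 20.5 and 18.3 CPM, and Kbtbd13, a protein of the muscle sarcomere, 11.5, 10.5 and 10.8 against 5.0, 4.72, 5.0, 4.19 and 7.0 CPM. Amy1, an amylase, measured 20.1, 7.5 and 19 against 2.66, 4.87, 1.97, 2.09 and 5.8 CPM, but belongs to a family of near-identical genes among which the counting could split reads. Alas2, the first enzyme of heme synthesis in red cells, measured 6.45, 2.67 and 3.29 against 2.03, 1.37, 1.32, 0.967 and 1.9 CPM. The lowest aged value of Aldh1a1, Pxmp2 and Alas2 was that of library 2, which lay close to the highest young value. Hsd11b1 and Mylk2 are described above, and Ppp1r1a, Gdap1, 6430571L13Rik and Gm29666 complete the 12. Aldh4a1, which lay below the limit of a log2 difference of 1, had the smallest p-value of the genes that were higher in aged mice, with 31.9, 31 and 25.5 against 16.9, 17.4, 13.2, 15.3 and 18.1 CPM (log2 fold change 0.86 ± 0.19, unadjusted p = 7.1e-05, adjusted p = 0.245 in edgeR and 0.0281 in DESeq2). It encodes a mitochondrial enzyme that completes the breakdown of proline, its groups did not overlap, and its span overlaps Gm21969 on the same strand.

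Myogenic genes gave no such separation. Of 38 tested genes of muscle stem cells, differentiation and fusion, and developmental contractile proteins, 23 were above 0, and the median was 0.03. At an unadjusted p under 0.05, 0 differed in either direction, against 6.31% of all genes. In a list of 38 that count is not far from the share of all genes and does not show that age left these genes unchanged. Pax7, the transcription factor of muscle stem cells, measured 17.9, 22.7 and 26.6 CPM in the aged and 21.2, 15.5, 22.1, 6.93 and 25.6 CPM in the young libraries, with the lowest value in young library 4 (log2 fold change 0.29 ± 0.34, adjusted p = 0.996, edgeR). Myf5, which marks their activation, measured 1.97, 3.67 and 3.79 against 2.81, 2.59, 2.89, 1.13 and 5.2 CPM, and Myod1, which commits them to the lineage, 17.4, 22.2 and 32.1 against 23.7, 23.9, 18.7, 16.4 and 41.4 CPM. Myog, which drives terminal differentiation, measured 67.6, 79.5 and 134 against 106, 85, 108, 58.8 and 166 CPM. For each of these 4 genes 3 of the 5 young libraries lay inside the range of the aged ones. Mymk, the membrane protein that lets myoblasts fuse, measured 185, 223 and 300.1 against 183, 121, 238, 209 and 179 CPM. Myh3, embryonic myosin, measured 1056, 933 and 1123 against 1159.8, 495, 824, 623 and 880.3 CPM (log2 fold change 0.38 ± 0.96), and Myh8, neonatal myosin, 1323, 1761 and 825 against 2746, 1066, 1644, 444 and 1376 CPM (log2 fold change -0.16 ± 1.0). For both myosins the standard error, which draws on the spread in all 38 libraries, exceeded the estimated difference. The direction of Myh8 turned under several of the alternatives. Mef2d, a transcription factor of differentiating fibres, was the 1 gene of these lists without overlap, at 127, 126 and 146 against 97.8, 124, 92, 93.5 and 120.2 CPM (log2 fold change 0.33 ± 0.16).

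**Figure D3:**
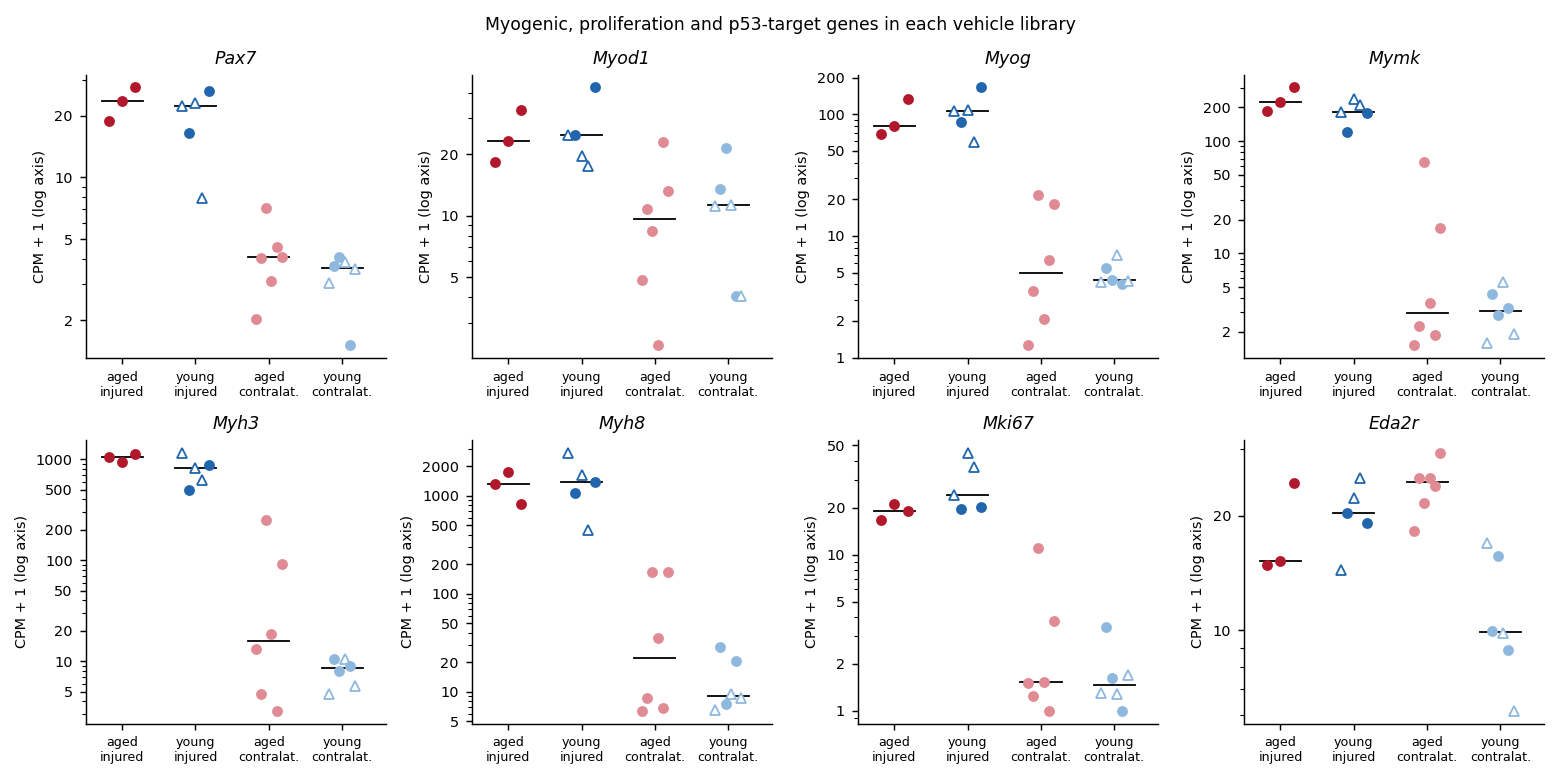
CPM + 1 (log axis) of 8 genes in each vehicle library, by age and leg, with the group median as a line. Filled circles are libraries with the description style of the aged mice and open triangles those with the other style. Aged and young injured libraries overlap in every panel, and contralateral aged replicates 3 and 6 lie above the other contralateral libraries for Myh3.

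Genes of cell division were mostly below 0, but few reached even an unadjusted p under 0.05. Of 44 genes of DNA replication and mitosis, 39 were below 0, against 49.7% of all genes. At an unadjusted p under 0.05, 1 of the 44 was lower and 1 higher, against 2.62% and 3.69% of all genes. The median over all 44 was -0.36, and -0.18 within the shared style. Mki67, the proliferation antigen Ki-67, measured 15.8, 20.2 and 18 CPM in the aged and 23, 18.7, 43.9, 35.3 and 19.1 CPM in the young libraries. Young libraries 3 and 4 were the high ones, and the other 3 lay around the aged values (log2 fold change -0.64 ± 0.61, adjusted p = 0.985, edgeR). Ccna2, cyclin A2, measured 3.41, 2.67 and 3.2 against 5.0, 5.18, 8.16, 4.19 and 6.3 CPM without overlap, and Aurka, a mitotic kinase, lay the other way at 6.99, 6.0 and 9.19 against 2.81, 3.35, 4.47, 5.32 and 4.1 CPM, also without overlap.

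Genes of growth arrest gave little in injured muscle. CDK inhibitors and p53 targets had a median of -0.06. At an unadjusted p under 0.05, 0 of 16 differed, against 6.31% of all genes, and a list of 16 is too short to tell these apart. Cdkn1a, the inhibitor p21, measured 357, 559 and 568.3 CPM in the aged and 420.1, 391, 653, 356 and 416 CPM in the young libraries. Cdkn2a, the locus of p16 and p19, measured 6.45, 6.5 and 10.7 against 7.81, 8.53, 11.1, 6.61 and 8.6 CPM (log2 fold change -0.10 ± 0.56, adjusted p = 1, edgeR), and Eda2r, a p53 target, 13.8, 14.2 and 23.4 against 13.4, 19.3, 21.3, 24.2 and 18.2 CPM. Genes of the senescence-associated secretion had a median of -0.27, with 12 of 13 below 0, and of -0.52 within the shared style. They included Gdf15, a stress-induced cytokine, at 8.24, 5.0 and 6.09 against 9.84, 8.22, 15, 21.9 and 8.1 CPM and Igfbp3, a carrier of insulin-like growth factors, at 1.61, 1.83 and 2.2 against 6.56, 3.2, 4.74, 1.61 and 7.5 CPM. Aged and young values overlapped for all 5 genes named here.

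Macrophage genes showed no shared direction. Of 24 markers 13 were above 0, the median was 0.03, and the summed level was 2691 to 3421 CPM in the aged and 2507 to 3759.7 CPM in the young libraries. Adgre1, the antigen F4/80, was an exception without overlap, at 35.5, 31.8 and 29.4 CPM in the aged and 45, 44, 52.1, 51.6 and 42 CPM in the young libraries (log2 fold change -0.54 ± 0.63, adjusted p = 0.996, edgeR). Csf1r, the receptor on which macrophages depend, measured 326, 278 and 359.6 against 243, 238, 332, 356 and 236 CPM. Spp1, osteopontin, measured 21.1, 19.8 and 31 against 26.6, 23.6, 35.7, 48.2 and 50.7 CPM, and for both 2 young libraries lay within the aged range. Lyve1, a marker of resident macrophages and of lymphatic vessels, was high in aged library 3 alone, at 15.8, 13.3 and 90.6 against 13.3, 24.1, 11.6, 16.9 and 18.5 CPM, and its log2 fold change of 1.26 became -0.21 without that library. H2-Eb1, a class II histocompatibility gene, measured 317, 304 and 235 against 258, 230.2, 259.6, 145 and 226 CPM. Only 4 of 16 T and NK cell markers passed the filter. Of these, 3 were above 0 (median 0.37, and -0.04 within the shared style), and Cd4, the 1 below 0, measured 1.43, 0.833 and 1.7 against 4.69, 3.05, 3.42, 1.61 and 4.5 CPM.

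Of red cell genes, all 6 tested erythrocyte genes were above 0 (median 1.05). At an unadjusted p under 0.05, 4 of them were higher, against 3.69% of all genes. Their summed level was 297 to 606 CPM in the aged and 101 to 411 CPM in the young libraries. Hba-a1, an alpha globin, measured 155, 105 and 176 against 119.8, 48.3, 28.5, 58.7 and 64.9 CPM, and its near-identical copy Hba-a2 119, 71.5 and 113 against 87.5, 35.3, 26.3, 45.4 and 54.1 CPM, so that the split between the pair is uncertain. The part of residual blood in other results was not tested. Schwann cell markers had a median of -0.59. Adipocyte markers had a median of -0.61 (-0.97 within the shared style), and endothelial markers of 0.02. The summed level of the adipocyte markers went the other way, with medians of 3114 CPM in the aged and 2187 CPM in the young libraries and overlapping ranges.

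Growth factor signalling showed single genes rather than a shared direction. Genes of TGF-beta, activin and BMP signalling had a median of -0.12 over 29 genes, and those of IGF, FGF and other growth factors 0.02 over 16. Ltbp1, which stores latent TGF-beta in the matrix, measured 27.2, 24.2 and 22.7 CPM in the aged and 54.1, 37.3, 50.6, 43.5 and 36.9 CPM in the young libraries without overlap (log2 fold change -0.85 ± 0.28; voom with quality weights, adjusted p = 0.0386). Fgfr1, a receptor for fibroblast growth factors, varied little within the groups, at 30.3, 30.2 and 29 against 42.6, 39.4, 42.8, 41.1 and 44.6 CPM (log2 fold change -0.50 ± 0.17, adjusted p = 0.506, edgeR). Egfr, the epidermal growth factor receptor, measured 14.2, 13.8 and 17.2 against 32.7, 23.8, 23.7, 18 and 20.5 CPM, and Igf1, which macrophages and stromal cells secrete in repair, 90.7, 99 and 95.5 against 213, 123, 129, 89.3 and 163 CPM, with young library 4 below all aged libraries. Fos, an immediate early gene, measured 1.79, 2.0 and 2.1 against 4.37, 4.42, 6.31, 5.16 and 6.5 CPM without overlap, and 11 of 12 such genes were below 0 (median -0.36).

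Genes that handle nicotinamide and pyridoxine had a median of 0.09. At an unadjusted p under 0.05, 0 of 24 differed, against 6.31% of all genes, and a list of 24 is too short to tell these apart. Without overlap 2 of the 24 were lower and 0 higher in aged mice, against 2.87% and 3.56% of all genes. Nampt, which returns nicotinamide to the NAD pool, measured 43.9, 38 and 52.4 CPM in the aged and 34.7, 47, 29.2, 23.5 and 41.9 CPM in the young libraries, and Nnmt, which methylates nicotinamide for excretion, 2.69, 5.0 and 5.59 against 7.81, 7.61, 7.63, 7.57 and 8.3 CPM without overlap (log2 fold change -0.80 ± 0.51, adjusted p = 0.9, edgeR). Pdxk, which phosphorylates pyridoxine, measured 15.4, 22.2 and 18.5 against 21.1, 16.3, 19.5, 23 and 15.7 CPM, and 4 of the 5 young libraries lay within the aged range.

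**Figure D4:**
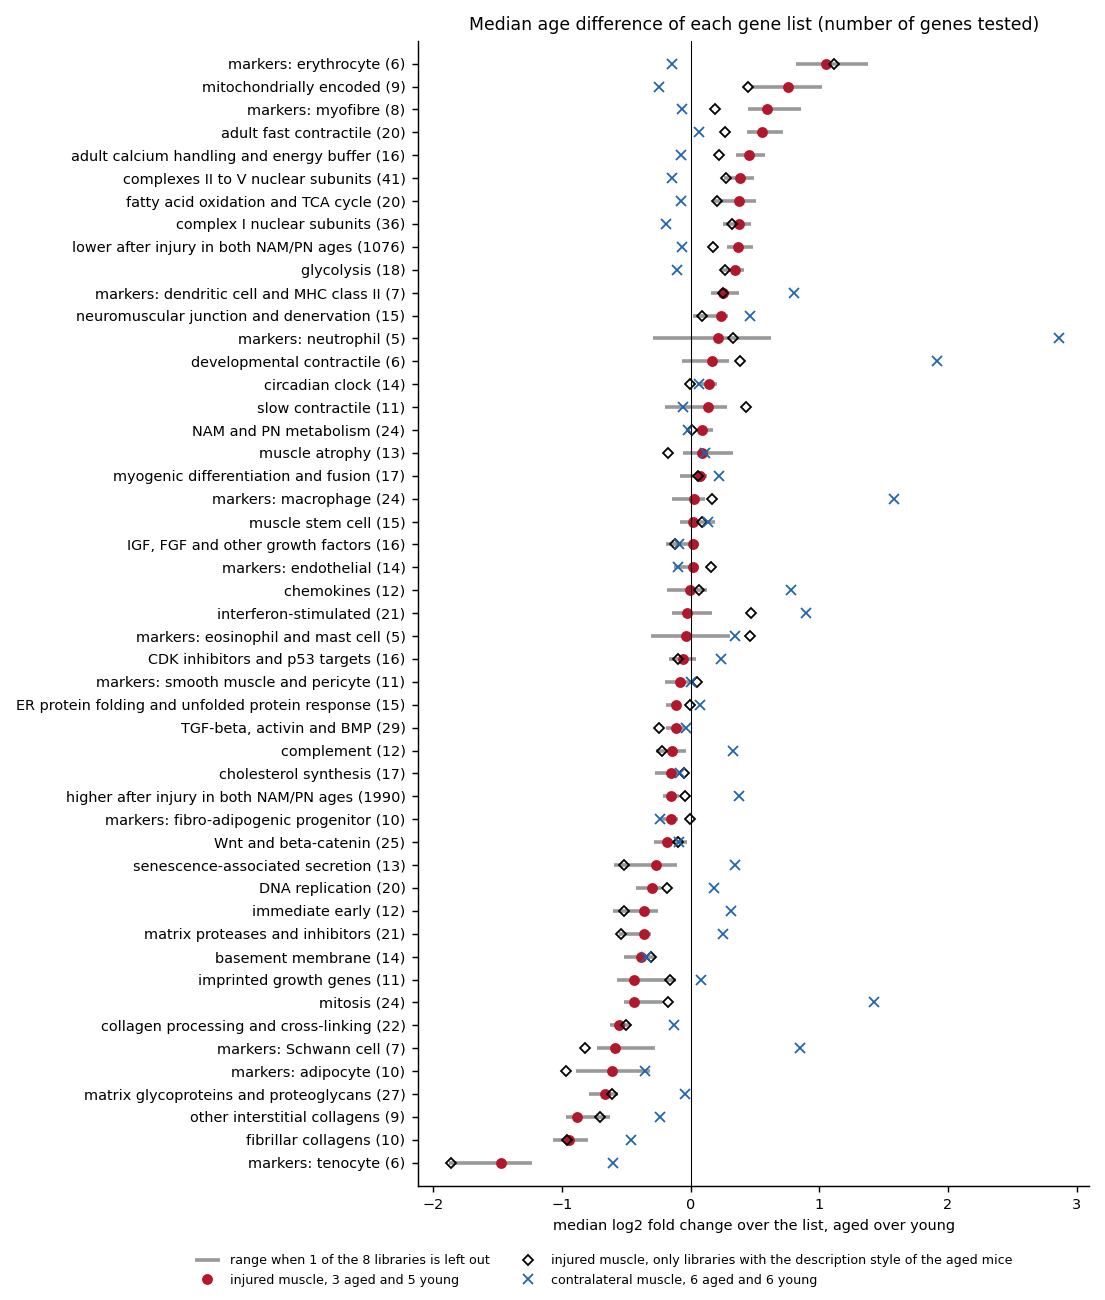
Median log2 fold change of aged over young for each list with at least 5 tested genes (number in brackets), in injured muscle with all 8 libraries (red circles), with the range when any 1 library is left out (grey bars), within the shared description style (open diamonds), and in contralateral muscle with all 12 libraries (blue crosses). Medians for injured muscle ran from -1.47 for tenocyte markers to 1.05 for erythrocyte markers. Collagen and matrix glycoprotein lists sit toward the lower end, and mitochondrial and adult fast fibre lists toward the upper end. Adipocyte, Schwann cell and mitosis lists lie below the basement membrane and matrix protease lists.

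Genes were also grouped by their response to injury. In NAM/PN-treated mice, whose libraries entered neither side of the comparison, 1990 genes rose and 1076 fell after injury at both ages, by a log2 difference of at least 1 with an adjusted p under 0.05 in edgeR. Of the genes lower after injury, 955 were above 0 in aged against young vehicle-treated injured muscle, with a median of 0.37, and 210 were higher and 2 lower at an unadjusted p under 0.05. Over all genes 50.3% were above 0 and 49.7% below, with 3.69% higher and 2.62% lower at that threshold. Of the genes higher after injury, 1334 were below 0, with a median of -0.15, and 125 were lower and 6 higher. In edgeR's adjusted test 0 genes of either set passed. Within the shared style the medians were 0.17 and -0.04, and the young libraries of that style differed from the other young ones by 0.38 and -0.18 in the same sense, so that for these 2 sets part of the difference moved with the style. The age and the extent of the lesion, or of tissue that the toxin did not reach, cannot be told apart in bulk muscle RNA.

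**Figure D5:**
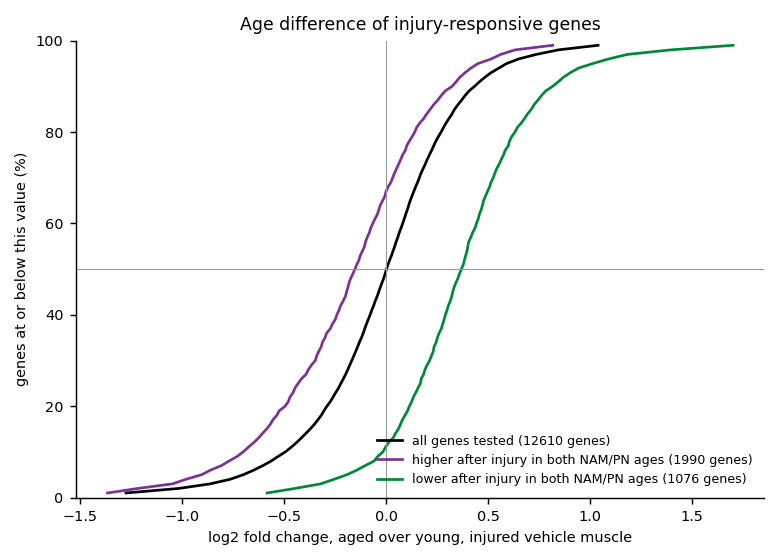
Share of genes (percent, vertical axis) at or below each log2 fold change of aged over young in injured vehicle-treated muscle, for all 12610 genes and for genes higher or lower after injury in NAM/PN-treated mice of both ages, drawn from the first to the 99th percentile. The curve of genes lower after injury is shifted to the right (median 0.37) and that of genes higher after injury to the left (median -0.15) of all genes (median 0.00).

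The same comparison was made in contralateral muscle. With all 12 libraries 139 of 12610 genes (1.1%) passed at an adjusted p under 0.05, but only 3 of 12583 (Nrep, Foxo6 and Aig1, named for this count alone) did when aged replicates 3 and 6 were left out. Across genes the age differences of the 2 legs, which share no library but 8 mice, had the same sign for 49.3% of genes. Eda2r, which overlapped in injured muscle, rose in aged contralateral muscle, where it ranged from 17.3 to 28.3 with a median of 23.5 CPM in the aged and from 5.14 to 16 with a median of 8.9 CPM in the young libraries (log2 fold change 1.17 ± 0.26, adjusted p = 0.024, edgeR). Without aged replicates 3 and 6 its log2 fold change was 1.15 and its adjusted p 0.139. Embryonic myosin, Myh3, ranged from 2.23 to 248.8 with a median of 14.9 CPM in aged and from 3.78 to 9.42 with a median of 7.47 CPM in young contralateral muscle, and the 2 highest aged values were those of replicates 3 and 6.

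By list medians, matrix genes lay on the same side in both legs, and energy genes did not. The 82 matrix genes had a contralateral median of -0.21 with all libraries, where 30 were above 0. Without aged replicates 3 and 6 it was -0.33. For these 82 genes the difference between the legs had medians of -0.52 with all libraries and -0.24 without the 2. Of them, 16 and 24 were above 0, against 46.5% of all genes with all libraries. For fibrillar collagens the contralateral medians were -0.46 and -0.76, and the median difference between the legs was -0.59 and -0.04. Col1a2 ranged from 68.5 to 499.7 with a median of 127 CPM in aged and from 227 to 621 with a median of 396 CPM in young contralateral muscle, a log2 fold change of -1.05 ± 0.39 (adjusted p = 0.212, edgeR), or -1.83 without the 2 libraries (adjusted p = 0.0741). The energy genes had contralateral medians of -0.17 and -0.05, on the other side of 0, and the difference between the legs had medians of 0.59 and 0.49, with 99 of 106 genes above 0 with all libraries, against 46.5% of all genes. Macrophage markers had a contralateral median of 1.58 with all libraries and of -0.06 without these 2.

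Tested gene by gene, the difference of the age effect between the legs passed for 0 of 12610 genes in edgeR at an adjusted p under 0.05, and for 1223 (9.7%) at an unadjusted p under 0.05. Among the genes with the smallest p, Ndufb11 ranged from 136 to 203 with a median of 177 CPM in aged and from 192 to 257 with a median of 202 CPM in young contralateral muscle, against higher aged values in injured muscle, and its difference between legs was 1.02 ± 0.24 (log2, adjusted p = 0.272) and 0.92 without aged contralateral replicates 3 and 6. Kbtbd13 ranged from 8.99 to 20.7 with a median of 16.1 CPM in aged and from 15.8 to 30.9 with a median of 17.8 CPM in young contralateral muscle (difference 1.54 ± 0.35, and 1.38 without the 2). Aldh4a1 differed by 1.02 ± 0.25 between the legs, and Dhrs7c, a reductase of the sarcoplasmic reticulum, by 1.20 ± 0.29, with 146, 186 and 142 CPM in aged and 93, 112, 95, 69.3 and 107 CPM in young injured muscle. On the other side, Mt3, a metallothionein, measured 3.41, 2.17 and 4.99 against 4.53, 12.3, 5.53, 26.6 and 5.2 CPM in injured muscle and differed by -3.29 ± 0.79, and -2.94 without the 2. Diaph3, a formin of dividing cells, had a difference of -4.50 ± 1.18 that became -2.60 without them.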

How the data were processed

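Gastrocnemius muscle RNA of vehicle-treated and NAM/PN-treated, young and aged male mice was measured in 38 libraries from 23 mice by QuantSeq 3′ tag sequencing on one of 2 instruments, and which instrument served which library is not given in the sources used here. The authors deposited whole-number read counts for 27554 Ensembl genes on GRCm38, per the labels counted with HTSeq (given there as version 2.16.2). The aligner's settings, the annotation release and the strand setting are not given in the sources used here. The 8 injured libraries summed to between 4032414 and 7507191 counts, and intervals on counts cover counting error only. Without the strand setting, reads cannot be told apart from those of an overlapping gene on the other strand for Ecm2, Timp1, Hsd11b1, Gli1, Atp2a1, Myh7, Myl2, Myl3, Cox6a2, Ndufb11, mt-Nd6, Pfkm, Csf1r, H2-Eb1, Alas2, Ccna2, Miat, Aldh1l2, Matn4, 6430571L13Rik and Gm29666, and Amy1, Nampt, mt-Nd4 and Aldh4a1 overlap a gene on the same strand. Groups were taken from the sample titles.

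Counts of all 38 libraries were filtered with filterByExpr, scaled with TMM and fitted with 1 coefficient per group in edgeR 4.0.16 (R 4.3.3) with its quasi-likelihood test and Benjamini-Hochberg adjustment over all genes tested at 0.05. limma 3.58.1 (voom with quality weights, and voom without them for the mouse as a replicate block) and DESeq2 1.42.0 were alternatives. Others were scalings, filters, sets of libraries, further replicate blocks and the omission of each library. The main fit was also run on counts simulated from its own estimates with known changes. That simulation held no description style and no outlying library, so it cannot show how the fit handles them. The mitochondrial share was compared with an exact permutation test in SciPy 1.17.1. Genes are named where they were among the 12 smallest unadjusted p-values per direction with a log2 difference of 1 or more, an average of 1 CPM or more and separate groups, belonged to a panel of 27 genes, were among the 3 smallest p-values per direction in a list, or the 4 smallest per direction for the difference between legs; only part of those allowed by the list criterion is named. Members and lists were chosen with earlier results of these data known. Promoter windows came from RefSeq on GRCm38.p6, and 76 of 107 named genes had one.

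No pair of libraries agreed within counting noise (lowest chi-square per degree of freedom 12.2). Title numbers did not pair the libraries of the injured groups, since correlations of same-numbered deviations lay between -0.210 and -0.0455. Of the mice with both legs, 3 of 8 had a correlation over 0.1.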

Additional observations from a re-analysis of the deposited data

Results flagged for a closer look

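In 160 checks of gene levels, list scores and the mitochondrial share in young injured muscle, 10 found 1 of the 5 libraries far from the rest by Dixon's criterion, where chance gives about 1 in 20, or 8. The aged group of 3 is too small for this check. Young library 1 stood above the other 4 for Col5a3 (202.8 CPM, against 97.6 to 123.9), Matn4 (18.4 against 6.50 to 9.67 CPM) and Abi3bp (107.8 against 51.0 to 61.1 CPM), and these are matrix genes that were lower in all aged libraries. Young library 2 stood above the others for Fmod (230.4 against 92.0 to 130.1 CPM) and Cilp2 (180.1 against 52.6 to 83.5 CPM), which share that pattern. Young library 4 stood above the others for the slow fibre genes Myh7 (124.6 against 0.789 to 14.2 CPM) and Myl2 (113.1 against 0.395 to 25 CPM). For dendritic cell and MHC class II markers the same library stood below the others, with a mean log2 level of 5.16 against 5.66 to 5.78. Young library 3 stood above the others for Cdkn1a (652.6 against 355.9 to 420.1 CPM), and young library 5 for Kbtbd13 (7.0 against 4.19 to 5.0 CPM). What set these libraries apart was not tested.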

How the results depend on the processing

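In injured muscle edgeR called 0 genes under each scaling, filter and set of libraries tried and without any 1 library, but voom with quality weights called 128, DESeq2 16, and description style as a covariate 1 (Lamc1, named for this count). With the title number as a replicate block in edgeR the count was 0. It was also 0 with the mouse as a replicate block, which was fitted in limma's voom without quality weights. For that mouse block, here and below, tool and block changed together. At an unadjusted p under 0.05 edgeR's count was 796 as reported, 277 of 12574 within the shared style, 1040 with library totals and 1196 with injured libraries only. It was 1136 of 11841 with the 8 libraries only, where the smallest adjusted p in edgeR was 0.063. When 1 library was left out, the count ranged from 483 (without aged replicate 1) to 1000 (without young replicate 2). In contralateral muscle the count of 139 became 1 with voom with quality weights and 2 with voom and the mouse as a replicate block. It became 44 with the title number as a replicate block in edgeR, 8 with vehicle libraries only and 0 within the style of the aged mice. It was 89 with style as a covariate, 242 with DESeq2 and 3 without aged replicates 3 and 6 (chosen after seeing the data). It ranged from 1 (without aged replicate 6) to 248 (without aged replicate 5) when 1 library was left out, and was 9 without young replicate 1, 8 without young replicate 3, 80 without young replicate 5, 60 without aged replicate 3 and 220 without aged replicate 2. For the difference between legs DESeq2 called 20 genes against 0, and the mouse as a fixed replicate block over both legs of 8 mice, also chosen after seeing the data, called 0. Leaving out 1 library kept the styles of description at 0 calls and the mitochondrial share difference between 3.32 and 8.07 percentage points.

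Of 107 named genes, 95 kept their direction in every alternative. The log2 fold change turned for Myh1 to 0.092 with the title-number block, and for Myh7 to 1.36 with voom, 0.39 with the mouse block, 1.86 with the title-number block and 0.73 within the shared style. It turned for Myh8 to 0.075, 0.043 and 0.095 under the mouse block, the title-number block and the shared style. For Myf5 it was -0.079 with library totals, -0.10 with the title-number block, -0.31 within the shared style and -0.035 with style as a covariate. Cdkn1a turned to -0.036 with library totals and -0.14 with style as a covariate, and Pdxk to 0.23 within the shared style. Without 1 library the values ranged from -0.73 to 0.24 for Myh1, -1.72 to 1.62 for Myh7, -0.33 to 2.66 for Myl2, -0.21 to 2.56 for Myl3, -0.44 to 0.20 for Myh8, -0.10 to 0.42 for Myf5, -0.33 to 0.21 for Myod1, -0.51 to 0.069 for Myog, -0.21 to 1.67 for Lyve1, -0.39 to 0.022 for Cdkn2a and -0.17 to 0.089 for Pdxk. The cause was not tested. Of 778 list medians under alternatives, 30 moved by more than 1 SD. Depth limits genes near 1 CPM, such as Miat, Kera and Gli1, whose values rest on few counts per library.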
